A study of Mus musculus with 5 samples.

Results

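The AP-1 and immediate early transcription factors described here were the genes Fos, Fosb, Fosl1, Fosl2, Jun, Junb, Jund, Atf3, Egr1 and Batf. They were chosen by symbol, and all 10 had a row among the 24419 gene rows of the deposited table. RNA was measured in 5 samples of bone marrow-derived macrophages (BMMs) from C57BL/6 mice, macrophages that had been grown from bone marrow with 50 ng/ml M-CSF for 5 days and then activated with 100 ng/ml LPS. Of these, 2 samples were given PBS, the control, and 3 were given 100 ng/ml recombinant Semaphorin 3G (Sema3G), and both groups were kept for 18 h. The recombinant protein carried an Fc tag and came from 293T cells, and no Fc control was analysed here. The comparison thus asks what Sema3G adds in BMMs that had all received M-CSF and LPS. Neither the number of mice nor separate cultures are given in the sources used here, so the p-values measure the spread between these samples, which may be technical.

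AP-1 is not a single protein. It is a dimer of basic leucine zipper (bZIP) proteins, in which a Jun protein pairs with itself, with a Fos protein or with a protein of the ATF or BATF type, and the choice of partners sets which DNA sites are bound and how strongly. Fos, Fosb, Jun, Atf3 and the zinc finger gene Egr1 are among the classical immediate early genes. Such genes are transcribed from factors already present in the cell when MAP kinases are activated, and their RNAs are short-lived. In macrophages LPS activates these kinases through TLR4, and AP-1 takes part in the transcription of cytokines, chemokines and matrix proteases. Jund and Fosl2 are less tied to the first minutes of a stimulus. The samples hold a single late time point, so an early pulse of these RNAs was not measured.

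The libraries read the 3′ end of each RNA and count molecules by unique molecular identifiers (UMIs), so the values were not divided by transcript length. Values are CPM, the UMIs of a gene divided by the total of its library and put on a common scale of counts per 1e+06. Library totals, inferred from the CPM values, were 1798469 to 2215855 UMIs, and 3 UMIs corresponded to 1.35 to 1.67 CPM. The 2 PBS libraries differed from each other by far more than counting error (chi-square per degree of freedom 11.4 over genes), while Sema3G replicates 2 and 3 were the most alike pair (1.77) and Sema3G replicate 1 stood apart from both (6.57 and 7.57). The ribosomal RNA precursor Rn45s took 1.01% and 3.19% of the UMIs with PBS and 6.31%, 7.40% and 7.88% with Sema3G, and its part in the changes was not tested beyond a scaling without it. The median log2 fold change (log2FC, Sema3G minus PBS) over all tested genes was -0.22, against -0.038 once CPM had been scaled by TMM factors (edgeR), so a change is also given relative to that median. Of 9 macrophage markers looked up, Csf1r, Adgre1, Lyz2 and all others but Mertk (at most 2 UMIs with PBS) were well above the limit of 3 UMIs, and 0 of the 9 passed the test. Their summed level was 13036 and 10053 CPM with PBS and 9245 to 9716 CPM with Sema3G, and its part in the results was not tested. Markers of other cells were low in summed CPM. Of 7 lymphoid markers 6 were at 0 (only Cd3d had UMIs, at most 2.78 CPM), the neutrophil list reached at most 2.75 CPM with Elane, Ngp and Retnlg at 0, the dendritic cell list at most 2.22 CPM with Flt3, Xcr1 and Siglech at 0, and the mast cell and basophil list at most 0.461 CPM with Mcpt8, Ms4a2 and Kit at 0. The stromal and endothelial list lay between 24.1 and 56.6 CPM with PBS and between 21.7 and 41.7 CPM with Sema3G.

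Jun, Junb and Jund have no intron in GENCODE M21 (GRCm38, the sequence of mm10), which is common among early response genes. RefSeq promoters (GRCm38.p6) matched 8 of the 10 symbols. The 150 bases before the start are shown for Fos, Jun and Atf3, whose log2FC values with Sema3G were positive, and for Junb, whose was negative. Capitals mark CGTCA on either strand (the core of a cyclic AMP response element, which ATF and CREB proteins bind), TGANNTCA (a Jun/ATF-type site) and TATAAA.

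Fos, chr12:85473740-85473889, plus strand: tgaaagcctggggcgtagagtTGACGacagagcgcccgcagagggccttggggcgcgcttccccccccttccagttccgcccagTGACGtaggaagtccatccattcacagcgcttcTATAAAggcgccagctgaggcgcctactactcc

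Jun, chr4:95052223-95052372, minus strand: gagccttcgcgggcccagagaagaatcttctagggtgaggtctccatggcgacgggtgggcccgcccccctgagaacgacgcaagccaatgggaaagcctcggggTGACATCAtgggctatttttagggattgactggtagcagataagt

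Atf3, chr1:191183334-191183483, minus strand: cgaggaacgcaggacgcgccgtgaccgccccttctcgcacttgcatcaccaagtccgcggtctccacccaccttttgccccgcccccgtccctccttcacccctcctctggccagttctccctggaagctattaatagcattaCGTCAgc

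Junb, chr8:84978749-84978898, minus strand: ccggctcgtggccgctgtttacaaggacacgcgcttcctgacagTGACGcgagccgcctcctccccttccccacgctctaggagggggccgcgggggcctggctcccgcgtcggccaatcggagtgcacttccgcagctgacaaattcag

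In the 250 bases before the start, both strands searched, Fos held CGTCA at 66 and 129 bases before the start and TATAAA at 33, Jun held TGANNTCA at 45, and Atf3 and Junb held CGTCA at 7 and 106. CGTCA is found in 17.8%, TGANNTCA in 11.9% and TATAAA in 12.4% of the 32851 promoters of that length. The others of the 7 motifs searched were GGGCGG (32.7% of promoters, and present before Fos, Jun and Atf3 but not Junb), TGANTCA (6.75%), the CArG box (1.47%) and the NF-kB site (7.25%, present before Fos). TGANTCA and the CArG box were not found in the windows of these 4 genes. The motifs CGTCA and TGANNTCA can overlap. These matches describe the letters only. The RefSeq start of Atf3 lies inside its GENCODE gene model, downstream of the start of the longest form.

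The 3′ UTRs are where these libraries read the RNAs, and several hold the pentamer ATTTA, the core of AU-rich elements that shorten the life of an mRNA. Of the 10 members 9 had at least 1 pentamer, against 66.5% of the 9383 tested genes with an annotated 3′ UTR, and Batf had none. The stricter nonamer, TTATTTA followed by 2 bases that are each A or T, was in 20% of the members and 16.0% of those tested genes. Fos had 4 pentamers in 815 bases and Fosl2 had 8 in 4653 bases. The stretches of 30 bases with 2 pentamers (capitals) are shown for both, since their log2FC values lay on opposite sides of 0, and in Fos the pair overlaps.

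Fos, 3′ UTR bases 643 to 672: tgtgttttcaATTTATTTAttaagatggat

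Fosl2, 3′ UTR bases 3676 to 3705: attgacATTTAttttattATTTAttttaaa

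No member passed the test with Sema3G, a test that did not pair the libraries. The fit with replicate numbers as a block is given at the end. limma on log2(CPM + 1) was fitted to the 10088 genes whose mean reached 1 CPM, of which 182 (1.80%, 160 higher and 22 lower) had an adjusted p below 0.05. After TMM scaling that split was 322 higher and 3 lower (3.22%), with 0 of the 8 tested members among them. Of the 10 members 8 were tested, and 0 of 8 were called by limma. Fosb and Egr1 were below the minimum. The quasi-likelihood test of edgeR, run on UMI counts recovered from CPM, which called 4.10% of 8144 genes, also called 0 of the 7 members it tested, and DESeq2, which called 1.81% of 12792 genes, called 0 of 9, of which Fosl1 and Egr1 had no adjusted p. At an unadjusted p below 0.05, 3 of the 8 were lower (Junb, Fosl2 and Batf) and 0 were higher, where the same held for 14.2% and 6.83% of all tested genes. Both groups were free of overlap for 2 members, Junb and Fosl2, both lower with Sema3G. Among all tested genes 26.5% were lower and 11.9% higher without overlap. The direction of these small p-values turned with the scaling: with TMM-scaled CPM 3 members were higher at an unadjusted p below 0.05 (Fos, Jun and Atf3) and 0 lower, against 11.3% and 5.09% of all tested genes. When CPM was recomputed on the sum of listed genes without Rn45s (4.58% of genes called), 0 members were called and Fos came nearest to the limit (log2FC 0.71, limma adjusted p = 0.0881). In the same scaling Jun was at 0.67 (limma adjusted p = 0.118), Atf3 at 0.69 (limma adjusted p = 0.119) and Junb at -0.21 (limma adjusted p = 0.625). As these are bulk samples, fewer cells with an RNA and less of it per cell cannot be told apart.

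**Figure D1:**
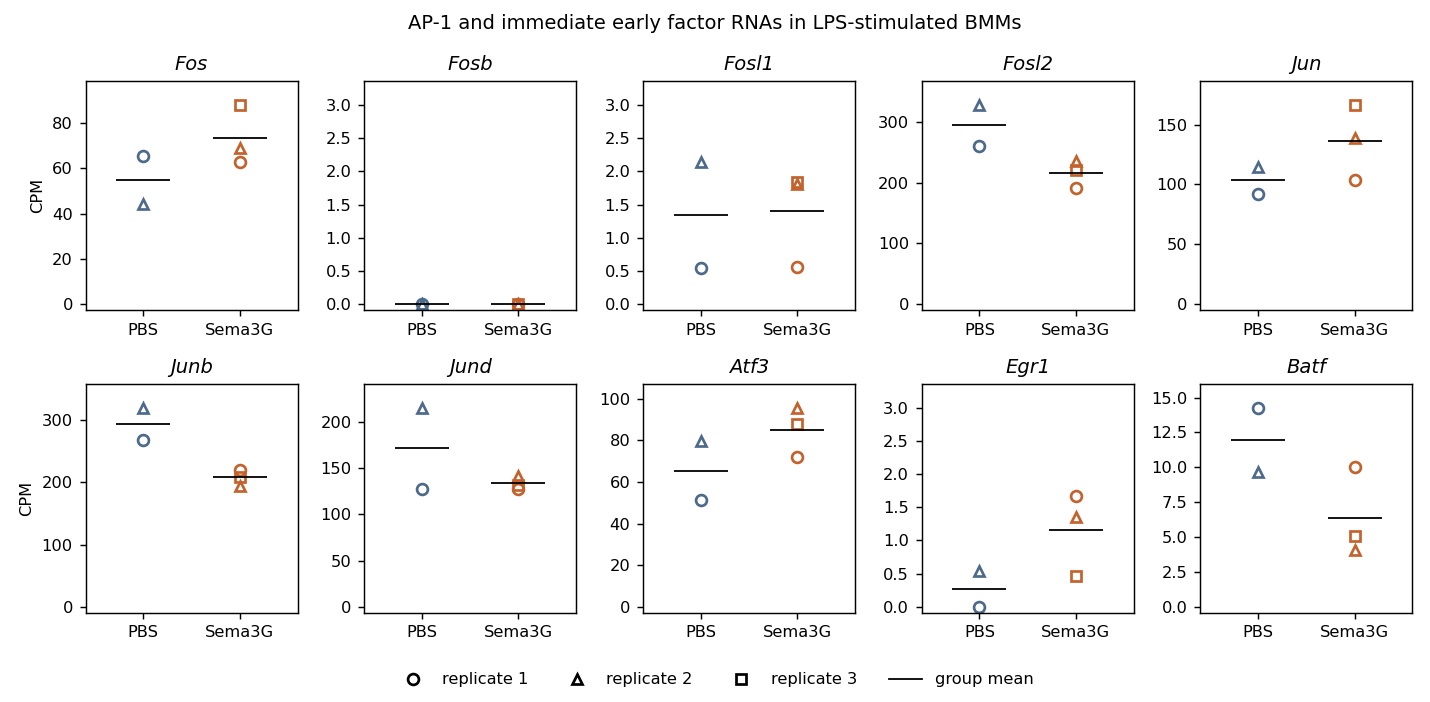
Level of each of the 10 genes in CPM (vertical axis, linear from 0, a separate scale per panel) with PBS and with Sema3G. Each symbol is 1 library, its shape gives the replicate number, and the bar is the group mean; Junb and Fosl2 are the members in which all 3 Sema3G libraries lie below both PBS libraries, and Fosb was at 0 in all 5.

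Among the Jun proteins, c-Jun (Jun) is the strongest activator of the family, JunB often acts against it on shared sites, and JunD is present in most resting cells. Jun (chr4:95049034-95052222, minus strand) was at 92.3 and 115 CPM with PBS and at 104, 139 and 166 CPM with Sema3G. The groups overlapped, because Sema3G replicate 1 lay below PBS replicate 2, while Sema3G replicates 2 and 3 lay above both PBS libraries. On the other strand Junos overlaps 689 bases of the Jun transcript. The mean of Jun was 103 ± 15.7 CPM (SD, n = 2) in PBS libraries against 136 ± 31.3 CPM (SD, n = 3), for a log2FC of 0.38 (SE 0.21, 95% confidence interval -0.067 to 0.82, limma adjusted p = 0.310). That is 0.60 above the median of all genes, with 0.36 without PBS replicate 1 and 0.83 without PBS replicate 2.

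Junb (chr8:84974484-84978718, minus strand) stood at 269 and 320 CPM with PBS and at 220, 195 and 209 CPM with Sema3G. Every Sema3G library was below both PBS libraries, and the 3 lay close together. The group means were 294 ± 36.4 CPM (SD, n = 2) and 208 ± 12.6 CPM (SD, n = 3), a log2FC of -0.50 (SE 0.18, 95% confidence interval -0.88 to -0.11, limma adjusted p = 0.144), or -0.27 relative to the median of all genes (-0.073 without PBS replicate 2). With TMM-scaled CPM the groups of Junb were separated only by a narrow gap (236 CPM in PBS replicate 1 against 234 CPM in Sema3G replicate 3), and the log2FC was -0.29 (limma adjusted p = 0.415). On the gene model of Junb, 351 bases at the 3′ side also belong to Prdx2 on the other strand (the chosen Junb transcript itself does not reach them), and whether strand was used in counting is not stated in the sources read here. Prdx2 had a log2FC of -0.65 (limma adjusted p = 0.0844).

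Jund (chr8:70698949-70700616, plus strand) was at 128 and 216 CPM with PBS and at 128, 142 and 132 CPM with Sema3G. A single library, PBS replicate 2, was high and the other 4 were within 128 to 142 CPM. On the other strand Gm11175 overlaps 919 bases of its transcript. PBS replicate 2 was 1.69-fold above PBS replicate 1 (95% exact binomial interval 1.43 to 1.99, which covers counting error only), a wider gap than that between the group means of 172 ± 62.0 CPM (SD, n = 2) and 134 ± 7.12 CPM (SD, n = 3). The log2FC of -0.31 (SE 0.21, limma adjusted p = 0.398) was -0.69 without PBS replicate 1 and 0.062 without PBS replicate 2. Relative to the median of all genes it was -0.087, with -0.56 without PBS replicate 1 and 0.36 without PBS replicate 2.

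In the Fos family, c-Fos (Fos) and FosB carry strong activation domains, whereas Fra-1 (Fosl1) and Fra-2 (Fosl2) lack them and pair with Jun proteins in later or sustained responses. Fosl2 (chr5:32135801-32157842, plus strand, 4 exons) was at 260 and 328 CPM with PBS and at 192, 236 and 220 CPM with Sema3G. All 3 Sema3G libraries were below both PBS libraries. The means were 294 ± 47.5 CPM (SD, n = 2) and 216 ± 22.2 CPM (SD, n = 3), a log2FC of -0.44 (SE 0.19, 95% confidence interval -0.84 to -0.044, limma adjusted p = 0.196). Relative to the median of all genes it was -0.21, and 0.023 without PBS replicate 2. With TMM-scaled CPM the groups of Fosl2 overlapped, at 228 and 315 CPM against 187 to 255 CPM.

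Fos (chr12:85473890-85477273, plus strand, 4 exons) was at 65.4 and 44.4 CPM with PBS, from 119 and 83 UMIs, and at 62.8, 69.0 and 88.0 CPM with Sema3G, from 113, 153 and 191 UMIs. Sema3G replicate 1 lay just below PBS replicate 1, and the other Sema3G libraries were above both PBS libraries. Its means were 54.9 ± 14.8 CPM (SD, n = 2) and 73.3 ± 13.1 CPM (SD, n = 3), a log2FC of 0.42 (SE 0.22, 95% confidence interval -0.047 to 0.89, limma adjusted p = 0.284) and 0.65 above the median of all genes. In TMM-scaled CPM all 3 Sema3G libraries of Fos, 61.3 to 98.6, were above both PBS libraries, 57.3 and 42.8, for a log2FC of 0.62 (limma adjusted p = 0.163). Under that scaling 1 of the 8 tested members was higher without overlap (Fos) and 1 lower (Junb), against 17.4% and 15.9% of all tested genes.

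The remaining Fos genes were rare. Fosb (chr7:19302696-19310051, minus strand) had 0 UMIs in all 5 libraries, which allows up to 1.65 and 1.61 CPM with PBS and 1.67, 1.35 and 1.38 CPM with Sema3G. For Fosl1 (chr19:5447547-5455946, plus strand) 1 and 4 UMIs were counted with PBS, against 1, 4 and 4 under Sema3G. Its log2FC of 0.070 had a 95% confidence interval from -1.14 to 1.27 (limma adjusted p = 0.959), which holds a 2-fold change in either direction, so no difference was detectable at this depth. The 3′ end of Fosl1 overlaps Ccdc85b on the other strand.

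Atf3 (chr1:191170296-191218039, minus strand, 4 exons), a bZIP factor that LPS induces and that dampens cytokine genes, was at 51.1 and 79.8 CPM with PBS and at 71.7, 95.7 and 87.6 CPM with Sema3G. PBS replicate 2 lay above Sema3G replicate 1, so the groups overlapped. The means were 65.4 ± 20.3 CPM (SD, n = 2) and 85.0 ± 12.2 CPM (SD, n = 3), and the log2FC was 0.40 (SE 0.22, 95% confidence interval -0.067 to 0.86, limma adjusted p = 0.308). That is 0.62 above the median of all genes. The PBS libraries of Atf3 differed by 1.56-fold (95% exact binomial interval 1.20 to 2.05), while its group means were 1.32-fold apart in the fit.

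Batf (chr12:85686669-85709087, plus strand, 3 exons), which pairs with Jun proteins and is best known in lymphocytes and dendritic cells, was at 14.3 and 9.64 CPM with PBS and at 10.01, 4.06 and 5.07 CPM with Sema3G. These values rest on 26 and 18 UMIs with PBS and on 18, 9 and 11 UMIs with Sema3G. Sema3G replicate 1 lay between the PBS libraries and the other 2 lay below both. The log2FC of -0.87 (SE 0.40, 95% confidence interval -1.71 to -0.037, limma adjusted p = 0.220) was the one furthest from 0 among the tested members, and also the least precise after Fosl1. Relative to the median of all genes Batf was at -0.65. Egr1, a zinc finger factor of the same early response, was seen as 0 and 1 UMIs with PBS against 3, 3 and 1 under Sema3G. Over the groups this is a ratio of 4.18 in CPM with a 95% exact binomial interval from 0.536 to 188, so no change of Egr1 was detectable at this depth.

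**Figure D2:**
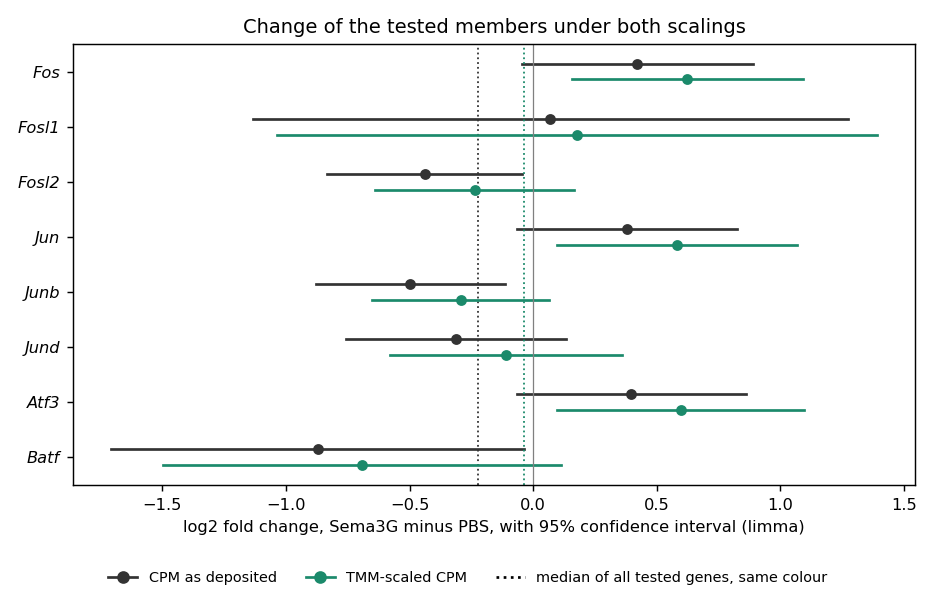
Log2FC (Sema3G minus PBS, horizontal axis) of the 8 tested members with its 95% confidence interval from limma, for CPM as deposited and for TMM-scaled CPM, with a dotted line at the median of all tested genes in the same colour. Fos, Jun and Atf3 lie to the right of that median under both scalings, Junb, Fosl2 and Batf lie to its left, and the TMM scaling moves all points to the right.

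How alike 2 members were over the 5 libraries was measured as the root mean square distance between log2(CPM + 1) values centred on each gene's mean. The closest pair was Fosl2 and Junb (0.15), and Jund was nearest to Fosl2 (0.16). Jun and Atf3 were each other's nearest (0.17), and the nearest to Fos was Jun (0.29). Batf was far from every other member, with its nearest, Junb, at 0.44. All of these distances include what the libraries share, such as their totals and the Rn45s share.

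Single libraries moved several of these values. Without Sema3G replicate 1, 6 of the 8 tested members were free of overlap: Fos, Jun and Atf3 were higher and Junb, Fosl2 and Batf lower. Of all tested genes 16.2% were then higher and 42.0% lower, so being lower without overlap was common among all genes. The adjusted p was then 0.0673 for Junb, 0.0773 for Batf and 0.0793 for Jun, the lowest that limma gave for these 3 genes with 1 library left out. The value for Atf3 hung on the PBS libraries, with a log2FC of 0.081 without PBS replicate 1 and 0.71 without PBS replicate 2. Fos moved the other way, to 0.70 and 0.15, PBS replicate 1 being its higher control. With 1 library left out, the log2FC of Junb ranged from -0.62 to -0.37, that of Fosl2 from -0.60 to -0.27 and that of Jun from 0.22 to 0.56.

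**Figure D3:**
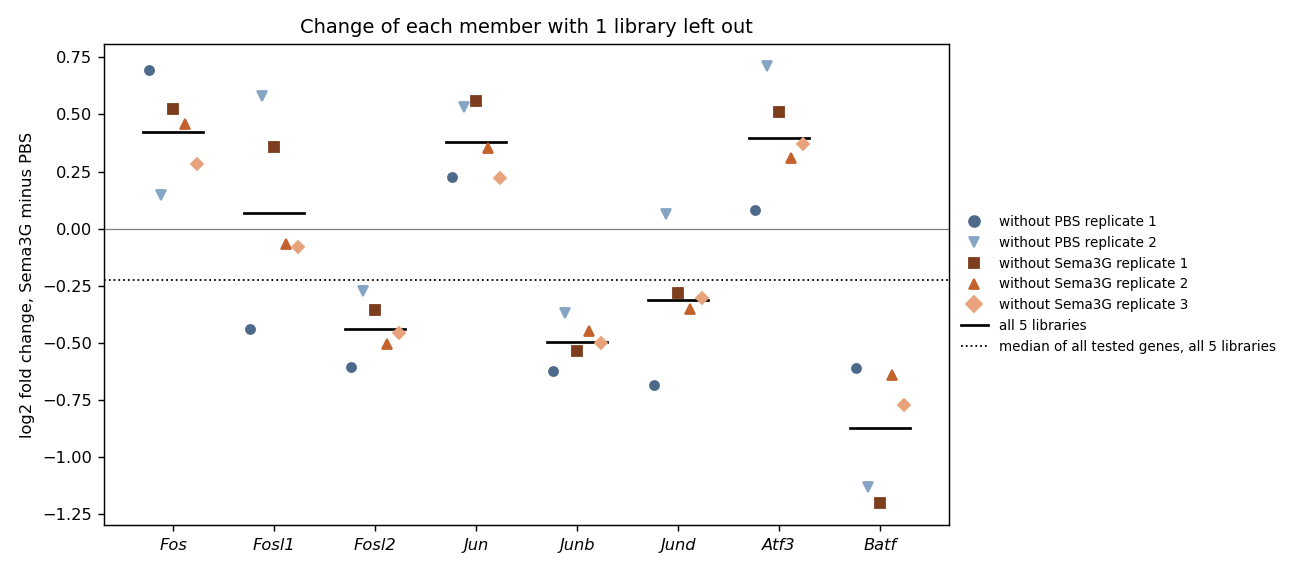
Log2FC (Sema3G minus PBS, vertical axis) of each tested member with all 5 libraries (black bar) and with each library left out in turn (symbols), with a dotted line at the median of all tested genes. Fos, Jun and Atf3 stayed above 0 and Junb, Fosl2 and Batf below 0 in all 5, while Jund and Fosl1 crossed it.

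Shares within the 10 genes do not depend on how a library was scaled. Together the 10 genes took 881 and 1115 CPM with PBS and 790, 883 and 911 CPM with Sema3G. Jun made up 10.5% and 10.3% of this sum with PBS and 13.2%, 15.7% and 18.3% with Sema3G. All Sema3G libraries were above both PBS libraries, which were nearly equal. Atf3 took 5.80% and 7.16% with PBS and 9.08%, 10.8% and 9.62% with Sema3G. The share of Fos was 7.42% and 3.99% against 7.95%, 7.82% and 9.67%, with only a narrow gap between PBS replicate 1 and the Sema3G libraries.

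On the other side stood Junb, with 30.5% and 28.7% of the sum with PBS and 27.8%, 22.0% and 23.0% with Sema3G. Fosl2 took 29.6% and 29.4% with PBS and 24.3%, 26.7% and 24.2% with Sema3G. Thus 3 of the 8 tested members were higher in share without overlap and 2 lower. Dividing every tested gene by the same sum gave 16.2% higher and 7.68% lower without overlap. By exact permutation (two-sided, the smaller tail doubled) p was 0.2 for each of Jun, Atf3, Fos, Junb and Fosl2. This is as low as p from this form of the test can go with groups of 2 and 3. The shares sum to a whole, so a gain in one is a loss in others. The shares of the families did not separate the groups: the Jun family held 55.5% and 58.4% with PBS and 53.8% to 57.1% with Sema3G, and the Fos family 37.1% and 33.6% against 32.3% to 34.7%.

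The contrast between Jun and Junb was picked after the values were seen. The ratio of Jun to Junb was 0.344 and 0.358 with PBS and 0.473, 0.715 and 0.795 with Sema3G. Of all other tested genes, 28.6% were also higher without overlap relative to Junb and 2.78% lower. The ratio of Fos to Jun, a common pair of partners, overlapped between the groups, at 0.708 and 0.388 with PBS and 0.497 to 0.604 with Sema3G.

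**Figure D4:**
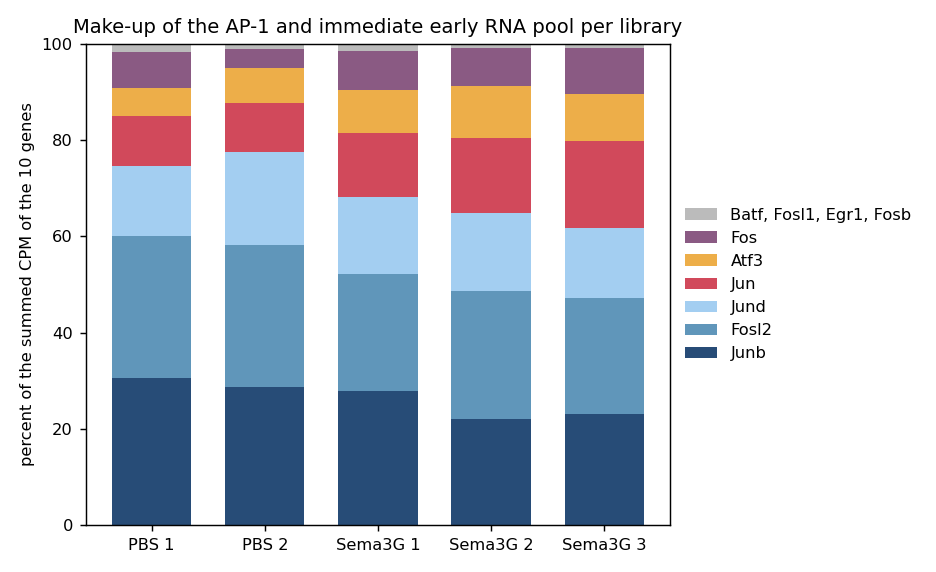
Percent of the summed CPM of the 10 genes (vertical axis) that each gene took in each library, as stacked bars. The parts of Jun, Atf3 and Fos were larger and those of Junb and Fosl2 smaller in every Sema3G library than in either PBS library, and Jund did not separate the groups.

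Of the genes around AP-1, grouped in 5 lists, 1 passed the test. This was Mapk3, the gene of the MAP kinase ERK1, which phosphorylates the factors that switch on Fos. It was at 429 and 546 CPM with PBS and at 335, 250 and 238 CPM with Sema3G. No Sema3G library reached the lower PBS value. Mapk3 fell by 0.83 on the log2 scale (SE 0.20, limma adjusted p = 0.0439). The call was lost with TMM-scaled CPM (-0.63, limma adjusted p = 0.0749) and with edgeR's quasi-likelihood test (-0.64, adjusted p = 0.0833). So it was without Sema3G replicate 2 (-0.77, limma adjusted p = 0.291) and Sema3G replicate 3 (-0.74, limma adjusted p = 0.263). Without PBS replicate 2 the log2FC of Mapk3 was -0.66. The call was also lost with a pseudocount of 0.1, no minimum, DESeq2 and CPM over listed genes other than Rn45s. The log2FC was then from -0.83 to -0.54, with adjusted p from 0.0585 to 0.118. In the MAP kinase list 1 of 29 tested genes was called lower and 0 higher, where 1.80% of all tested genes were called, with a median log2FC of -0.18 against -0.22 over all tested genes. Dusp6, the phosphatase that acts on ERK, had a log2FC of -0.71 (limma adjusted p = 0.0613, 0.0325 without Sema3G replicate 1 and 0.0605 to 0.314 with another library left out), Mapkapk2, a kinase downstream of p38, one of -0.37 (limma adjusted p = 0.280) and Tab2, an adaptor of TAK1, one of -0.061 (limma adjusted p = 0.877). With TMM-scaled CPM Mapkapk2 was at -0.17, and the direction of Tab2 turned (0.14). Mapkapk2 was at -0.23 without Sema3G replicate 3, and Tab2 at 0.088 without PBS replicate 2. Map3k1, a kinase at the top of the JNK branch, had a log2FC of 0.63 (limma adjusted p = 0.109) and passed with TMM-scaled CPM (0.83, limma adjusted p = 0.0275). It is named because of that call, after its values were seen.

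Other bZIP factors, with which AP-1 proteins pair or compete, gave 0 calls among 27 tested genes by limma (1.80% of all genes). At an unadjusted p below 0.05, 1 was higher and 3 lower, against 6.83% and 14.2% of all genes, and the median was -0.18. Among those with the highest level, Cebpb, an LPS-induced activator of cytokine genes, went from 564 ± 51.4 CPM (SD, n = 2) to 394 ± 18.0 CPM (SD, n = 3), a log2FC of -0.51 (limma adjusted p = 0.138) that was -0.31 with TMM-scaled CPM. Nfe2l2, the regulator of antioxidant genes, went from 207 ± 37.6 to 282 ± 17.3 CPM, a log2FC of 0.45 (limma adjusted p = 0.183). Maf, a bZIP factor expressed in macrophages, had a log2FC of 0.33 (limma adjusted p = 0.312). The PBS libraries moved both: without PBS replicate 1 Nfe2l2 was at 0.27 and Maf at 0.53, and without PBS replicate 2 they were at 0.64 and 0.13. With CPM on the sum of listed genes without Rn45s, Nfe2l2 (0.74, limma adjusted p = 0.0255) and Maf (0.62, limma adjusted p = 0.0430) passed.

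Of 22 tested genes in the list of other immediate early genes 0 were called by limma, against 1.80% of all genes. At an unadjusted p below 0.05, 1 was higher and 4 lower (6.83% and 14.2% of all genes), with a median of -0.20. Klf6, a zinc finger factor of the early response, was at 238 and 203 CPM with PBS and at 279, 354 and 372 CPM with Sema3G. Its log2FC of 0.59 did not pass limma's limit (adjusted p = 0.111), but it did with TMM-scaled CPM (0.80, limma adjusted p = 0.0281) and with edgeR's quasi-likelihood test (adjusted p = 0.0306). Ier3, Mcl1 and Trib1, the others with the highest level, had log2FC values of -0.10, -0.0077 and 0.042 (limma adjusted p = 0.813, 0.988 and 0.923). With TMM-scaled CPM these were 0.10, 0.20 and 0.24, so the direction of Ier3 and Mcl1 turned. Without PBS replicate 2 Ier3 was at 0.091 and Trib1 at -0.17. Egr2, Egr3, Egr4, Nr4a3, Myc and Dusp5 were below the minimum mean and not tested.

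SRF cofactors, which act together with SRF, and the EGR corepressors Nab1 and Nab2 made up a short list. Of 6 tested genes 0 were called by limma (1.80% of all genes). At an unadjusted p below 0.05, 0 were higher and 3 lower, against 6.83% and 14.2% of all genes. The median was -0.53, the lowest of the 5 lists, against -0.22 over all tested genes, and the 6 values ran from -0.70 to 0.20. Mkl1 had a log2FC of -0.69, Nab2 of -0.66, Elk3 of -0.40 and Nab1 of -0.078 (limma adjusted p = 0.128, 0.176, 0.283 and 0.839). With TMM-scaled CPM these were -0.49, -0.46, -0.20 and 0.12, so the direction of Nab1 turned. Elk3 was at -0.21 without PBS replicate 2. With 1 library left out the limma adjusted p of Mkl1 was 0.0419 without Sema3G replicate 1, where calls over all genes rose to 710, and 0.110 to 0.435 otherwise.

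Genes that AP-1 is known to act on in macrophages gave 0 calls among 19 tested genes by limma (1.80% of all genes). At an unadjusted p below 0.05, 1 was higher and 3 lower, beside 6.83% and 14.2% of all genes, and the median was -0.27. Il1b, the gene of interleukin-1 beta, was at 1451 and 2495 CPM with PBS and at 1110, 2119 and 1894 CPM with Sema3G, which overlap widely (log2FC -0.21, limma adjusted p = 0.702). The direction of Il1b turned without PBS replicate 2 (0.18) and without Sema3G replicate 1 (0.074), and was -0.60 without PBS replicate 1. Mmp14, a membrane matrix protease, was lower in all 3 Sema3G libraries, at 530 ± 8.58 CPM (SD, n = 2) against 393 ± 16.3 CPM (SD, n = 3), with a log2FC of -0.43 (limma adjusted p = 0.194) that was -0.23 with TMM-scaled CPM and -0.14 on the sum of listed genes without Rn45s. Hmox1 and Cd44, of heme breakdown and cell adhesion, had log2FC values of -0.33 and -0.27 (limma adjusted p = 0.388 and 0.394), which were -0.13 and -0.067 with TMM-scaled CPM. On the sum of listed genes without Rn45s Hmox1 was at -0.039 and the direction of Cd44 turned (0.019), as did that of Il1b (0.082).

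**Figure D5:**
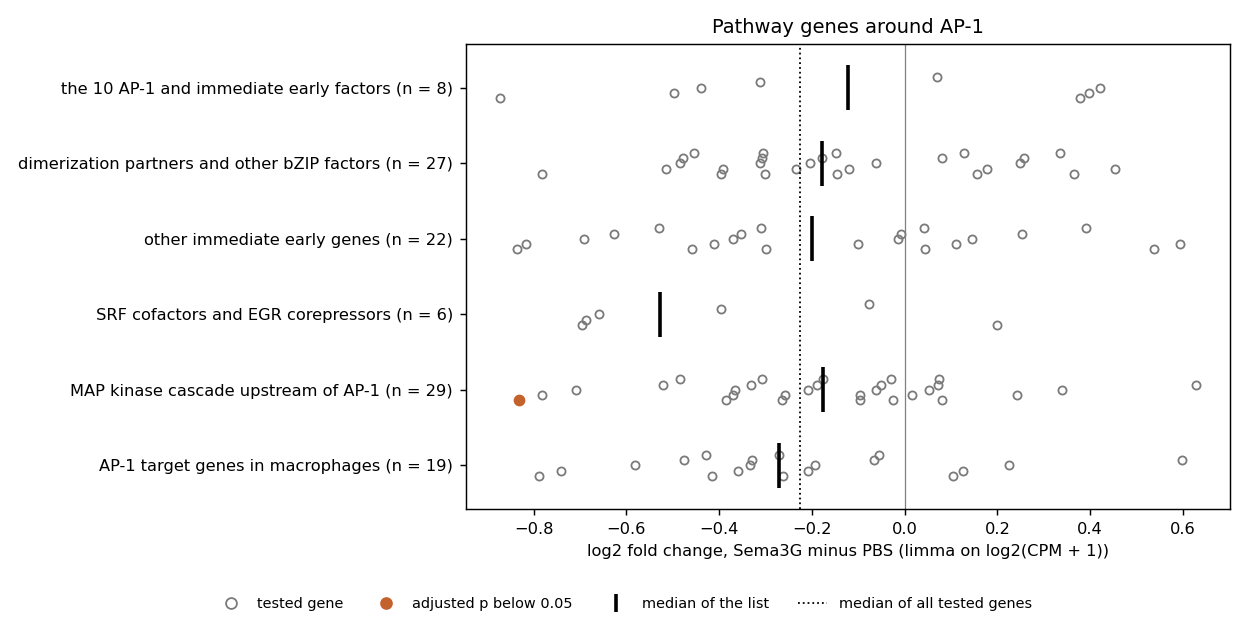
Log2FC (Sema3G minus PBS, horizontal axis) of each tested gene of the group and of 5 lists of related genes, 1 point per gene, with a bar at the median of each list and a dotted line at the median of all tested genes. The filled point, the only gene of these lists with an adjusted p below 0.05, is Mapk3, and 4 of the 8 members lie on either side of the dotted line.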

How the data were processed

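RNA of 5 samples of LPS-activated BMMs was read with QuantSeq 3′ libraries with UMIs. The authors deposited CPM per gene, mapped to mm10 with Strand NGS, and the submitters' processing notes name edgeR 3.12. The deposited p-value, q-value and ranking columns hold the authors' own comparison and were not used. Of 24419 rows, 11627 were 0 in all libraries, and 27 symbols had been turned into dates. The library totals used here were inferred from the CPM values, with the smallest value above 0 in each library taken as a single UMI. Multiplied by these totals, all CPM values gave whole UMI counts within 0.01, a property the totals were chosen for. A normalization factor within the CPM values would not show in this check and would pass into the totals and percentages. The listed genes held 65.9% to 77.6% of each total, so CPM depends on what the other UMIs were. Intervals and the limit of 3 UMIs for a count of 0 cover counting error only.

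limma 3.58.1 (R 4.3.3, trend) was run on log2(CPM + 1) for genes whose mean reached 1 CPM, PBS against Sema3G, with Benjamini-Hochberg adjustment over all tested genes. Fold changes on this scale understate those of low genes. Alternatives were pseudocounts of 0.1 and 5, no minimum, a minimum of 5 CPM, TMM-scaled CPM, CPM over listed genes other than Rn45s, edgeR 4.0.16 and DESeq2 1.42.0 on the recovered counts, a replicate block, and each library left out. The code was tested on simulated data. Exact two-sided permutation tests compared shares. All 10 members are described. From each of the 5 related lists the text names the genes past an adjusted p of 0.05 and those of highest level, 4 genes per list, except 1 gene that is not reported here. Map3k1 was added after its values were seen. Members and lists were chosen with earlier results of these data known. Sequences and 3′ UTRs came from RefSeq (GRCm38.p6) and GENCODE M21.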

Additional observations from a re-analysis of the deposited data

How the results depend on the processing

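No member was called by any alternative but the replicate block, and of 110 values of the 8 tested members over 14 alternatives 5 were reversed and 1 newly passed. Of the other 104, 1 (Fosl1 with DESeq2) had no adjusted p. The number of called genes, 182, was 108 without the minimum, 325 with TMM-scaled CPM, 482 with CPM over listed genes other than Rn45s and 334 with edgeR, and between 27 (without Sema3G replicate 2) and 710 (without Sema3G replicate 1, 270 higher and 440 lower) with 1 library left out. Of the related genes 1 was called as reported, 0 with a pseudocount of 0.1 or no minimum, 2 with TMM-scaled CPM and with edgeR, 4 with CPM over listed genes, and 0 to 8 with 1 library left out. Members without overlap between the groups numbered 2 to 6 with 1 library left out: 5 without PBS replicate 1 (62.3% of all genes), 6 without PBS replicate 2 (69.4%), 6 without Sema3G replicate 1 (58.2%), and 2 without Sema3G replicate 2 (45.5%) or 3 (44.8%). The log2 fold change of Fosl1 ranged from -0.44 to 0.58 with 1 library left out, and was -0.44 without PBS replicate 1, -0.069 without Sema3G replicate 2 and -0.079 without Sema3G replicate 3. Jund ranged from -0.69 to 0.062, the latter without PBS replicate 2. The share difference of Fosl1 was -0.033 percentage points without PBS replicate 1 and 0.0967 without PBS replicate 2, and that of Jund -3.79 and 1.04. The cause was not tested. With a PBS library left out, the remaining one is assumed to vary like the Sema3G libraries.

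The labels give same-numbered libraries nothing in common but the number. Their deviations from the group means correlated at 0.173 and 0.111, and 2 pairs are too few to settle a pairing. The unpaired Sema3G replicate 3 adds nothing to the blocked log2FC, which equals that without it, so the Fosl1 reversal is counted under both. With the replicate block 573 of 10088 genes were called (298 higher and 275 lower). Among them were 8 related genes and 1 member, Junb (-0.50, adjusted p = 0.0491 from limma), and Fosl1 was -0.079. That fit leaves 1 residual degree of freedom per gene, so its p-values rest mostly on the variance pooled over genes. Depth limits Fosb, Fosl1, Egr1 and Batf most.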
